A study of Mus musculus with 6 samples.

Results

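The sarcomere, Z-disc and titin-associated genes of the heart were followed here as a list of 32 genes, chosen by symbol for their place in the contractile apparatus. Of these, 31 had at least 1 probe set that names them alone, out of 18193 genes so measured on the array, and all 31 were bright enough to be tested among 11075 genes. The remaining gene, Xirp2, was not measured here. RNA from the left ventricle was hybridised to 6 one-colour Affymetrix arrays, 3 from wild-type mice and 3 from Akt2-/- mice, to ask how loss of the kinase Akt2 alters cardiac expression. All mice were C57BL/6 males of 12 to 16 weeks, and the knockout is a targeted disruption of Akt2 that was bred repeatedly onto that background, with no cell-type-specific driver named. The labels name no treatment in either group and do not tie each array to its own animal. The p-values therefore cover only the spread between these arrays. The array number, 3 in each group, limits the precision of every value below.

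The sarcomere is the repeating contractile unit of heart muscle. Myosin in the thick filament pulls on actin in the thin filament, troponin and tropomyosin gate that contact by calcium, and the giant protein titin spans from the Z-disc to the M-band as a spring. Thin filaments and titin are anchored in the Z-disc by alpha-actinin and a crowd of adaptor proteins, several of which also sense stretch. In the adult ventricle these transcripts are among the most abundant, and mutations in many of them cause cardiomyopathy. Akt2 is a kinase of the insulin signalling pathway.

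The targeted gene followed the labels: its brightest probe set read 2476 ± 103 in wild type and 376 ± 112 in knockout (SD, n = 3). Even that difference, -2.69 on the log2 scale (SE 0.24), missed the threshold in limma over all genes, with an unadjusted p of 1.15e-05 and an adjusted p of 0.0638. Signals are linear MAS5 intensities in the authors' scaling, and each gene is represented by its brightest probe set. Before any genotype comparison, the arrays numbered 1 were found to be unlike the other 4 in both genotypes. Their median signals were 167.3 in wild type and 134.4 in knockout, against 88.6 to 91.4 on the others, and their 18S ribosomal RNA control probe sets had medians of 82330 and 57275 against 152.7 to 446.7. The 4 arrays of replicates 2 and 3 correlated with each other at 0.982 to 0.986 on the log2 scale, the replicate 1 pair with each other at 0.94, and the replicate 1 arrays with the rest at 0.895 to 0.944. The sarcomere genes carried this split: together they made up 2.98% and 2.46% of all signal on the wild-type and knockout replicate 1 arrays, and between 1.73% and 2.05% on the others. Genotype differences are therefore given over all arrays and, in the plot of both differences, separately for the replicate 1 pair and for replicates 2 and 3.

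No sarcomere gene passed the test for a genotype difference. In limma with Benjamini-Hochberg adjustment over all genes tested, 0 of 31 had an adjusted p under 0.05 (0% of all genes tested) and 0 had an unadjusted p under 0.05 (2.17% of all genes). Since the targeted gene itself did not pass, an adjusted p above 0.05 here does not show that a gene was unaltered. The median difference over the 31 genes, knockout minus wild type on the log2 scale, was 0.04, against 0.01 over all genes, with 16 higher in knockout and 15 lower. The 2 genotypes did not overlap for 4 of the 31: the knockout arrays were all above wild type for Myot, Synpo2l and Nexn (3 of 31, 3.9% of all genes) and all below for Des (1 of 31, 3.56% of all genes). Knockout exceeded wild type in the pair of every replicate number for 7 genes, namely Myot, Synpo2l, Nexn, Pdlim5, Mypn, Flnc and Smpx (15.9% of all genes), and was lower in every pair for Des alone (14.1% of all genes). In bulk ventricle, a difference in the number of cardiomyocytes and a difference in RNA per cardiomyocyte cannot be told apart.

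**Figure D1:**
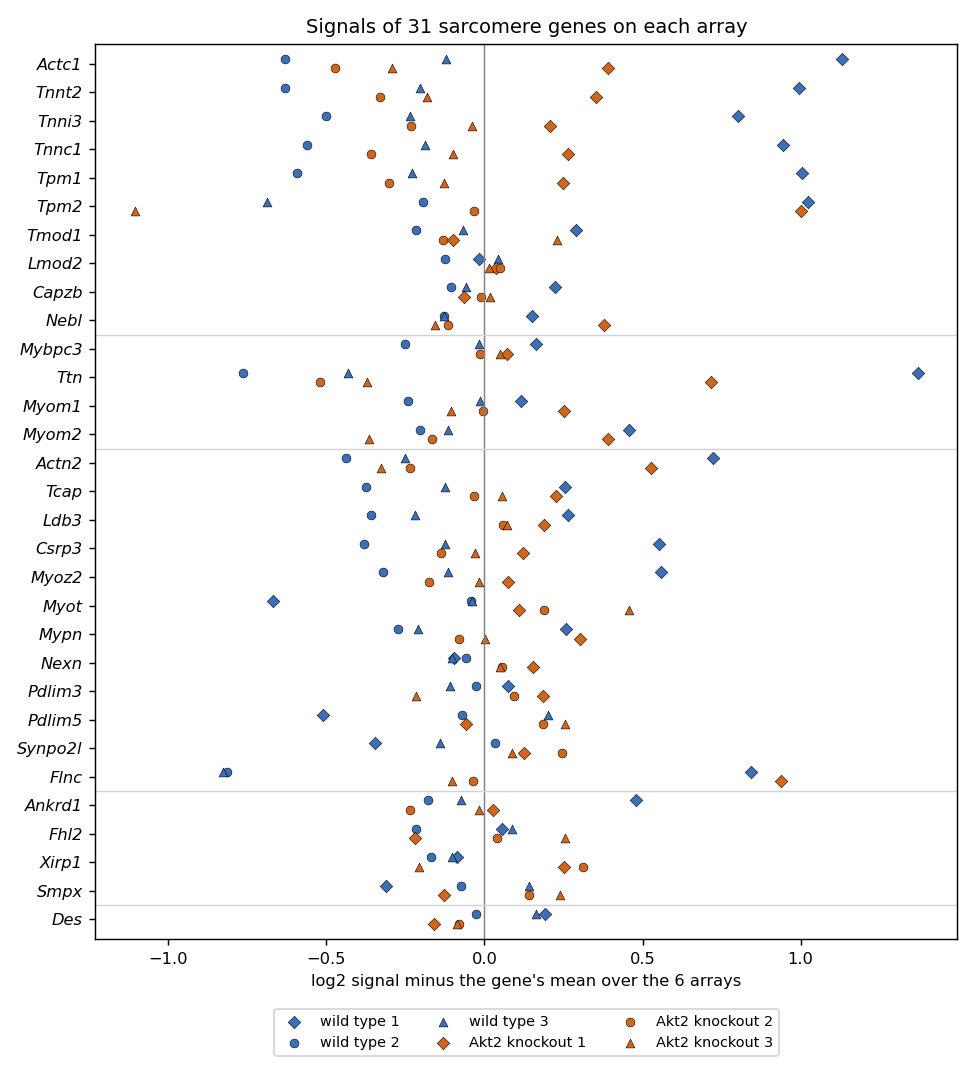
Each point is the log2 signal of 1 array minus that gene's mean over the 6 arrays (x axis), for the 31 sarcomere genes (y axis), grouped from top to bottom into thin filament, thick filament with titin and M-band, Z-disc, titin-associated and intermediate filament genes. Blue marks wild type, orange Akt2 knockout, and diamonds, circles and triangles mark replicates 1, 2 and 3. Wild type 1 is the highest array for 18 of 31 genes (31.9% of all tested genes) and wild type 2 the lowest for 17 (16.5%). Only Myot, Synpo2l, Nexn and Des separate the genotypes.

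Cardiac actin, the troponins and alpha-tropomyosin varied more between replicates than between genotypes. Actc1, the cardiac actin that builds the filament, read 189306, 55768 and 79447 on wild-type arrays 1 to 3, and 113208, 62313 and 70503 on knockout arrays 1 to 3. Both genotypes had their highest value in replicate 1, and the groups overlapped. Tnnt2, the troponin subunit that binds tropomyosin, read 162047, 52575 and 70614 in wild type and 104050, 64794 and 71678 in knockout. For Tnni3, the inhibitory troponin subunit, the wild-type signals were 110274, 44656 and 53767 and the knockout signals 73126, 53903 and 61540. Tnnc1, the calcium-binding subunit, gave 108935, 38388 and 49755 in wild type and 67963, 44144 and 52908 in knockout. The 3 troponin subunits thus shared an order in which wild type 1 was highest, knockout 1 next and wild type 2 lowest. The alpha-tropomyosin gene Tpm1, whose coiled-coil product lies along actin, had wild-type signals of 149347, 49400 and 63552 and knockout signals of 88519, 60328 and 68073. That is the same order again, with knockout 2 and 3 above the wild-type array of the same number and knockout 1 far below its own.

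Over all arrays the log2 differences of these genes were small beside their errors. Actc1 was at -0.25 (SE 0.47), Tnnc1 at -0.13 (SE 0.40), Tpm1 at -0.12 (SE 0.41), Tnnt2 at -0.11 (SE 0.43) and Tnni3 at -0.04 (SE 0.35), each with an adjusted p of 1 in limma to 3 digits. Quantile normalization turned the sign of Tnnt2, Tnni3 and Tpm1. The other 5 thin filament genes overlapped as well. Tpm2, the beta-tropomyosin gene, read 1936, 821.6 and 577 in wild type and 1908, 919.6 and 426 in knockout, so its 2 replicate 1 arrays nearly coincided and stood above the rest. Probe sets of Tpm1 and Tpm2, whose sequences are related, may share signal. Tmod1, which caps the pointed end of actin, gave 10164, 7138 and 7915 against 7745, 7572 and 9733. Lmod2, which elongates that end, gave 19296, 17922 and 20133 against 20027, 20209 and 19730, the narrowest range of the 10 genes relative to its level. Capzb, the beta subunit of the barbed-end capping protein, read 8887, 7068 and 7313 in wild type and 7269, 7553 and 7710 in knockout. Nebl, the nebulin relative that runs from the Z-disc along actin, read 8880, 7304 and 7311 in wild type and 10396, 7370 and 7175 in knockout. The log2 differences of these 5 lay between -0.09 for Tpm2 and 0.07 for Nebl, and that of Tmod1, near 0, turned under quantile normalization. As a group the 10 thin filament genes had a median difference of -0.07, with 2 higher, 8 lower and 0 past an unadjusted p of 0.05 in limma (2.17% of all genes).

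Promoters are shown for 5 of the 6 genes with the widest gap between the replicate 1 pair and replicates 2 and 3. The gaps are those in the authors' scaling, and the 5 were picked because each window shown holds a muscle motif. Any link between the motifs and the array pattern was not tested. The windows are the 250 bases before the RefSeq start (GRCm38.p6), read 5′ to 3′ on the gene's strand, with the motif in capitals. In Actc1 the capitals mark a CArG box, the site of serum response factor, beginning 47 bases before the start. In Ttn they mark a site of the MEF2 factors, beginning 166 bases before it. In Tnnt2, Tnnc1 and Tpm1 they mark the M-CAT motif CATTCC, or its reverse complement GGAATG, beginning 27, 58 and 56 bases before it, and for Tnnt2 the first of 2 RefSeq windows is shown. The sixth gene, Tnni3, had none of the motifs searched in its window.
Actc1, chr2:114052876-114053125, minus strand: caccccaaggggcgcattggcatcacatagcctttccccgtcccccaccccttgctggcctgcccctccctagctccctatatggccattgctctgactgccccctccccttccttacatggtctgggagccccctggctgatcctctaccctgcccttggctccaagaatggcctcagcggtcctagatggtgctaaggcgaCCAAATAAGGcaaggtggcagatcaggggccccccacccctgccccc
Ttn, chr2:76982548-76982797, minus strand: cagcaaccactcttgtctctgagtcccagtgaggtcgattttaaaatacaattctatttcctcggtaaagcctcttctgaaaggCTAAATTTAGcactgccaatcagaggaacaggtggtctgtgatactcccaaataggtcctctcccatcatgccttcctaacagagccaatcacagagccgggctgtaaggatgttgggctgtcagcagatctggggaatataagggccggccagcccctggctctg
Tnnt2, chr1:135836084-135836333, plus strand: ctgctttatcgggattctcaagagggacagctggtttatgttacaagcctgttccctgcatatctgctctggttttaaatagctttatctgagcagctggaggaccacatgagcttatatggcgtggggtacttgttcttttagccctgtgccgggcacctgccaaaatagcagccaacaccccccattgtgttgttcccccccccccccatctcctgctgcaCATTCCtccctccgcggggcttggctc
Tnnc1, chr14:31208062-31208311, plus strand: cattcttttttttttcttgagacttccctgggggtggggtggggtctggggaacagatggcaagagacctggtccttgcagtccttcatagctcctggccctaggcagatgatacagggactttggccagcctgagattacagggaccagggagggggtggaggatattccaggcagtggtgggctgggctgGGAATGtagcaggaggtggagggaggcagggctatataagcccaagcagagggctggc
Tpm1, chr9:67049214-67049463, minus strand: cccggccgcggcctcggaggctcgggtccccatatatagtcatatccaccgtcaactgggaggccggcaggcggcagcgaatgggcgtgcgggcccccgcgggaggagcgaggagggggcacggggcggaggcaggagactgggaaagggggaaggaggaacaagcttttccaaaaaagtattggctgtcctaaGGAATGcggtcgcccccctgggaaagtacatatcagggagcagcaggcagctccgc

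RefSeq windows were found for 27 of the 32 listed genes, and 4 motifs were searched on both strands. A CArG box was present in 5 of the 27 (18.5%), namely Actc1, Fhl2, Ldb3, Myom1 and Nebl, against 1.62% of all genes with a window. A MEF2 site was present in 6 (22.2%), namely Fhl2, Mybpc3, Myoz2, Synpo2l, Ttn and Xirp2, against 3.42%. CATTCC was present in 9 (33.3%) against 14.4%, and the TATA motif TATAAA in 3 (11.1%) against 14.3%. A MEF2 site can contain TATAAA, and such a window counts for both. These matches describe the letters of the windows only. The 5 genes with a CArG box had genotype differences from -0.25 for Actc1 to 0.21 for Ldb3.

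Among the thick filament, titin and M-band genes, titin followed the array order of the troponins. Ttn, which encodes titin, read 126452, 28762 and 36199 in wild type and 80220, 34018 and 37781 in knockout. Its wild type 1 value is the largest departure from a gene's mean among the 31 genes in the plot of signals by array, while the replicates 2 and 3 arrays of both genotypes lay within 28762 to 37781. The log2 difference was -0.12 (SE 0.60, limma adjusted p 1), and it turned to 0.04 under quantile normalization. Mybpc3, the myosin-binding protein that tunes cross-bridge cycling, read 39738, 29784 and 35017 in wild type and 37295, 35156 and 36668 in knockout. Myom1, the myomesin that links thick filaments at the M-band, read 18796, 14671 and 17182 against 20662, 17281 and 16130. Myom2, its paralog, read 44723, 28272 and 30028 against 42688, 29015 and 25274. Genotypes overlapped for all 4 genes, with differences of 0.07 for Mybpc3, 0.09 for Myom1 and -0.09 for Myom2. Their median was -0.01, with 2 higher and 2 lower.

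Of the 12 Z-disc genes, 9 were higher in knockout and 3 lower over all arrays, with a median difference of 0.17. Over all tested genes 5901 of 11075 were higher, with a median of 0.01. The further lists of related genes, given below, also held more genes higher than lower in knockout. In limma 0 of the 12 had an unadjusted p under 0.05 (2.17% of all genes). Myot, which encodes the actin-bundling protein myotilin, had the lowest p of all 31 genes. Its signals were 2771, 4292 and 4300 in wild type and 4767, 5042 and 6078 in knockout. Every knockout array was above every wild-type array, and wild type 1 was the lowest by a wide margin, the reverse of its place for actin, the troponins and Tpm1. The group means were 3788 ± 880 and 5296 ± 692 (SD, n = 3), a log2 difference of 0.50 (SE 0.23, limma p 0.0649, adjusted p 1). Without wild type 1 the difference was 0.29.

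Synpo2l, a cardiac actin-associated protein of the Z-disc, had signals of 3104, 4039 and 3577 in wild type and 4304, 4682 and 4198 in knockout. The groups did not overlap, and wild type 2 came closest to the knockout arrays. The difference was 0.30 (SE 0.17, limma p 0.117, adjusted p 1). Of its other 3 probe sets, all dimmer, one read 388.4, 437 and 444.7 in wild type and 701.9, 548 and 515.5 in knockout, again without overlap. Another overlapped, at 2124, 698 and 437.2 against 2627, 817.3 and 909.9, and the last, too dim to be tested, was lower in knockout at -0.86. The mean of all 4 gave a difference of 0.10. Nexn, which encodes the actin-binding protein nexilin, read 10557, 10848 and 10522 in wild type and 12573, 11751 and 11697 in knockout. Wild-type arrays lay within a narrow range and all knockout arrays above it, with a difference of 0.17 (SE 0.15, limma p 0.273, adjusted p 1).

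Pdlim5, a PDZ and LIM domain adaptor also called ENH, read 13580, 18413 and 22235 in wild type and 18569, 21980 and 23064 in knockout. Here knockout was higher within each replicate number, but the groups overlapped, and the difference was 0.25 (SE 0.22, limma p 0.298, adjusted p 1), or 0.06 without wild type 1. Ldb3, the PDZ and LIM domain protein also called ZASP or Cypher, read 28857, 18742 and 20638 in wild type and 27427, 25037 and 25257 in knockout. Its brightest probe set overlapped because of wild type 1, and gave 0.21 (SE 0.21, limma p 0.337, adjusted p 1). The other 2 Ldb3 probe sets did not overlap, one reading 8606, 9275 and 9314 against 11367, 11678 and 10581, and the other 2053, 1856 and 1721 against 2210, 2374 and 2269. Flnc, the actin cross-linker filamin C, read 1974, 611.2 and 605.8 in wild type and 2112, 1065 and 1015 in knockout. It was high on both replicate 1 arrays, and on replicates 2 and 3 both knockout arrays were above both wild-type arrays. Over all arrays the Flnc difference was 0.53 (SE 0.51, limma p 0.335, adjusted p 1), and over replicates 2 and 3 it was 0.75 (limma adjusted p 0.384). Leaving out 1 array gave Flnc values from 0.20 without knockout 1 to 1.09 without wild type 1. A second Flnc probe set read 1856, 507.7 and 944.8 against 1870, 658.1 and 728.4 and gave a difference of 0.002, well short of the first.

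The other 6 Z-disc genes overlapped between genotypes. Actn2, the alpha-actinin that cross-links actin in the Z-disc, read 44347, 19821 and 22574 in wild type and 38688, 22802 and 21400 in knockout. Tcap, the telethonin that caps the end of titin, read 37494, 24224 and 28819 against 36815, 30703 and 32648. Csrp3, the muscle LIM protein, read 77837, 40803 and 48747 against 57836, 48304 and 52036. These 3 were again highest on wild type 1 and lowest on wild type 2. Myoz2, a calsarcin that tethers calcineurin, read 72799, 39586 and 45676 in wild type and 52106, 43815 and 48868 in knockout. Mypn, which encodes myopalladin, read 4384, 3028 and 3161 against 4522, 3464 and 3666. Pdlim3, also called ALP, read 554.2, 515.9 and 485.2 against 600.3, 562.2 and 449.7. Of these 6, Tcap (0.17), Mypn (0.15) and Pdlim3 (0.04) were higher in knockout and Myoz2 (-0.08), Csrp3 (-0.03) and Actn2 (-0.02) lower. The Csrp3 and Actn2 signs turned under quantile normalization.

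Xirp1, which encodes the actin-binding Xin protein, was 1 of 4 genes grouped as titin-associated and stress-responsive. It had signals of 2349, 2217 and 2324 in wild type and 2976, 3103 and 2160 in knockout. Knockout 1 and 2 stood above the wild-type arrays, which were close together, while knockout 3 was below them all. The difference was 0.24 (SE 0.19, limma p 0.252, adjusted p 1). Ankrd1, the CARP protein that binds the elastic part of titin and is induced by load, read 50036, 31677 and 34045 in wild type and 36510, 30496 and 35474 in knockout. Fhl2, a LIM protein on titin, read 55492, 46041 and 56841 against 45913, 54941 and 63713. Smpx, a small muscle protein, read 24284, 28625 and 33250 against 27570, 33220 and 35571. All overlapped, at -0.15 for Ankrd1, 0.05 for Fhl2 and 0.16 for Smpx, so that 3 of the 4 genes were higher in knockout and 1 lower (median 0.11).

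Des, which encodes desmin, the intermediate filament that ties Z-discs to one another and to the membrane, was the only one of the 31 genes whose knockout arrays were all below wild type. It read 19509, 16749 and 19121 in wild type and 15300, 16148 and 16078 in knockout. The group means were 18459 ± 1494 and 15842 ± 471 (SD, n = 3), and the difference was -0.22 (SE 0.15, limma p 0.199, adjusted p 1). Wild type 2 was the array closest to the knockout group. Averaging in a second, dim Des probe set gave 0.0072.

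The median genotype difference changed sign with the replicate number in the authors' scaling. In the replicate 1 pair, knockout was below wild type for 19 of 31 genes, with a median difference of -0.07, whereas over replicates 2 and 3 it was above for 26 of 31, with a median of 0.15. All genes together were balanced in both, at medians of 0.01 and 0.003, with 5616 of 11075 higher over replicates 2 and 3. The thin filament group held the widest contrast, at -0.49 in the replicate 1 pair and 0.12 over replicates 2 and 3. For thick filament, titin and M-band genes the medians were -0.08 and 0.11, and for the titin-associated genes -0.05 and 0.17. The Z-disc group was above 0 in both, at 0.07 and 0.19, and all 12 of its genes were higher over replicates 2 and 3, with Myoz2 at -0.004 after quantile normalization. For Des the values were -0.35 and -0.15. In all, 15 genes were lower in the replicate 1 pair and higher over replicates 2 and 3 (24.7% of all genes), and Nebl alone was the reverse (25.3% of all genes).

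The difference between the 2 genotype effects was tested with an interaction term in limma, in which the replicate 1 pair adds 1 array of each genotype and the spread comes from replicates 2 and 3 alone. The interaction gave 0 of 31 genes an adjusted p under 0.05 (0.569% of all genes) and 7 an unadjusted p under 0.05 (20.5% of all genes), namely Flnc, Tpm1, Tnni3, Ttn, Tnnc1, Myoz2 and Tnnt2. Those counts are close to the background shares. In the authors' scaling Tpm1 had the widest gap: -0.75 in the replicate 1 pair and 0.19 over replicates 2 and 3, a difference of -0.95 (SE 0.28, limma adjusted p 0.171). Tnni3 went from -0.59 to 0.23 (gap -0.83, SE 0.25, limma adjusted p 0.178). Tnnc1 went from -0.68 to 0.15 (gap -0.83, SE 0.31, limma adjusted p 0.228). These 3 thin filament genes had near-equal gaps. Ttn went from -0.66 to 0.15 (gap -0.81, SE 0.27, limma adjusted p 0.195). Tnnt2 went from -0.64 to 0.16 (gap -0.80, SE 0.30, limma adjusted p 0.236), and Actc1 from -0.74 to -0.01 (gap -0.74, SE 0.35, limma adjusted p 0.312). After quantile normalization these gaps shrank or turned, to -0.10 for Tpm1, -0.12 for Tnni3, -0.16 for Tnnc1, -0.17 for Ttn, 0.16 for Tnnt2 and 0.33 for Actc1, and the widest of the 31 was then that of Flnc (-0.71).

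**Figure D2:**
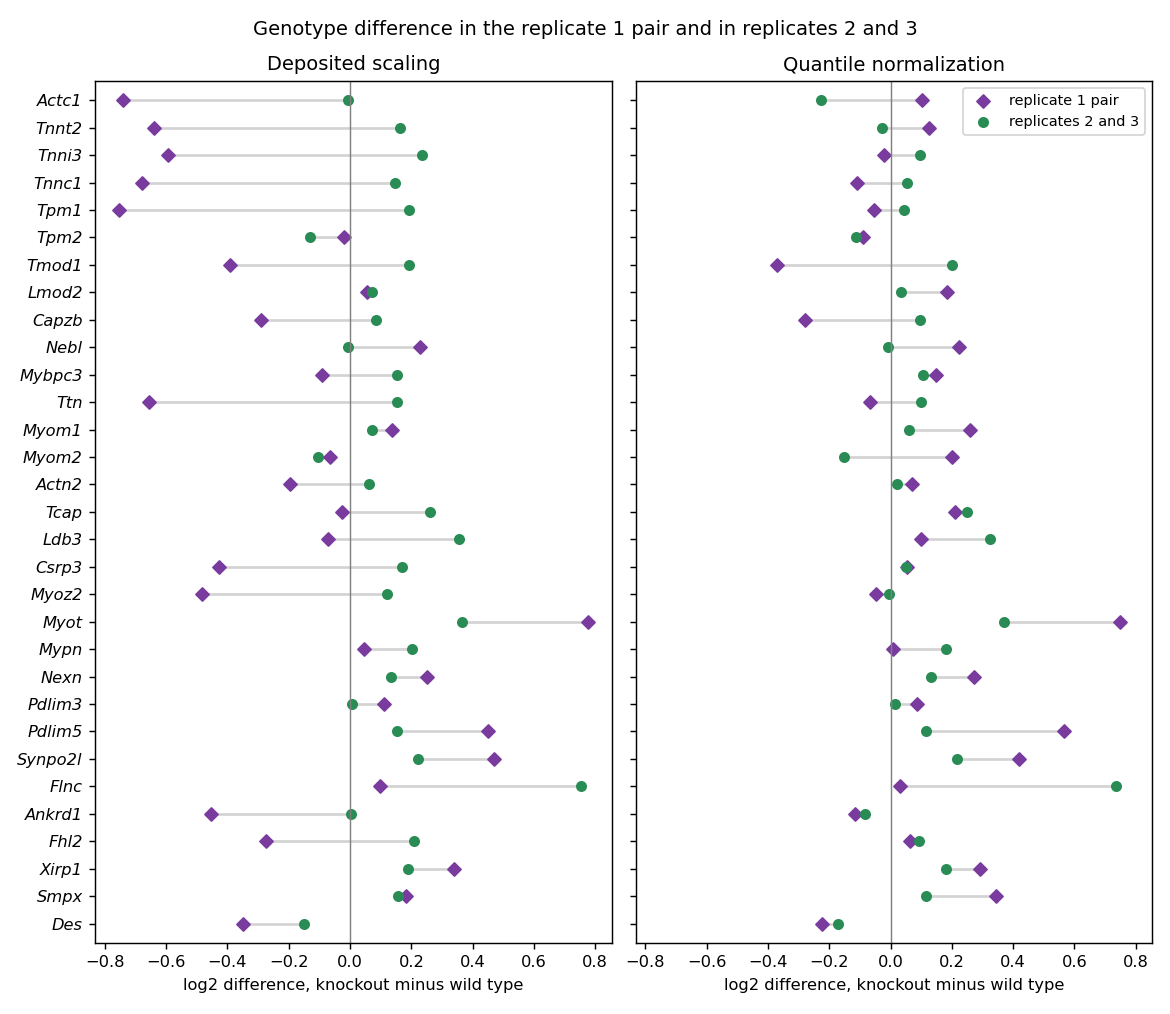
Log2 difference, knockout minus wild type (x axis), in the replicate 1 pair (purple diamonds) and over replicates 2 and 3 (green circles) for each of the 31 genes (y axis), in the authors' scaling (left) and after quantile normalization (right). The grey line joins the 2 values of a gene. In the authors' scaling 15 genes lie below 0 in the replicate 1 pair and above 0 over replicates 2 and 3. After quantile normalization 6 genes do so, while Actc1, Tnnt2, Nebl and Myom2 lie the other way round.

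Replicate 1 arrays also differed from the rest in the level of many sarcomere genes. With genotype in the limma model, 12 of 31 were higher on the replicate 1 arrays at an adjusted p under 0.05 (18.9% of all genes) and 0 were lower (15.1% of all genes). The 12 were Ttn (1.57), Tpm2 (1.52), Flnc (1.34), Actc1 (1.14), Tnnt2 (1.01), Tpm1 (0.94), Actn2 (0.94), Tnnc1 (0.90), Tnni3 (0.76), Myom2 (0.64), Mypn (0.42) and Nebl (0.40), each value being the log2 difference of replicate 1 minus the others. Below 0 lay Pdlim5 (-0.43), Myot (-0.42), Smpx (-0.33), Synpo2l (-0.17) and Fhl2 (-0.12), with none of these past the adjusted threshold in limma. The median was 0.83 for the thin filament genes, 0.46 for thick filament, titin and M-band genes, 0.35 for Z-disc genes and -0.0001 for the titin-associated genes, against 0.06 over all genes. At a mean log2 signal of 14 and over it was 0.43 for the 20 sarcomere genes and 0.20 for the 247 other genes. Outside the list it was 1.03 for 10 ventricular cardiomyocyte markers and -0.18 for 22 other sarcomere and Z-disc genes.

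When this difference was taken into account, the Z-disc genes led the list without passing adjustment. With a term separating the replicate 1 arrays from the others, limma gave 3 genes higher in knockout at an unadjusted p under 0.05 (3.98% of all genes) and 0 lower (4.33% of all genes). They were Myot (p 0.0122, adjusted p 0.586), Flnc (p 0.0164, adjusted p 0.586) and Synpo2l (p 0.0468, adjusted p 0.593). Blocking instead on the replicate number, limma gave 2 genes an unadjusted p under 0.05 in either direction (5.99% of all genes). They were Myot (p 0.0223) and Flnc (p 0.0332), both higher in knockout, and the lowest adjusted p among the 31 was 0.767. These counts rest on 3 and 2 genes, and none passed adjustment.

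How a sarcomere gene behaved in the replicate 1 pair went with how bright it was. Across the 31 genes, mean log2 signal correlated with the replicate 1 pair difference at a Pearson r of -0.634 and a Spearman rho of -0.757, and with the difference over replicates 2 and 3 at -0.137 and 0.013. These are descriptions across genes that share the same arrays and scaling. The 20 sarcomere genes with a mean log2 signal of 14 and over had a median difference of -0.31 for the replicate 1 pair and 0.15 over replicates 2 and 3. The 247 other genes that bright had medians of -0.26 and 0.09. Of the bright sarcomere genes, 13 (65%) were lower in the replicate 1 pair and higher over replicates 2 and 3, and of the other bright genes 177 (71.7%). Wild type 1 was the highest array for 75% of the bright sarcomere genes and 65.2% of the other bright genes, and wild type 2 the lowest for 70% and 64.4%. In the replicate 1 pair the 5 sarcomere genes between 12 and 14 had a median of 0.23, and the 4 between 10 and 12 had 0.22. Brightness also depends on the probes, so it is no ranking of transcript levels.

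**Figure D3:**
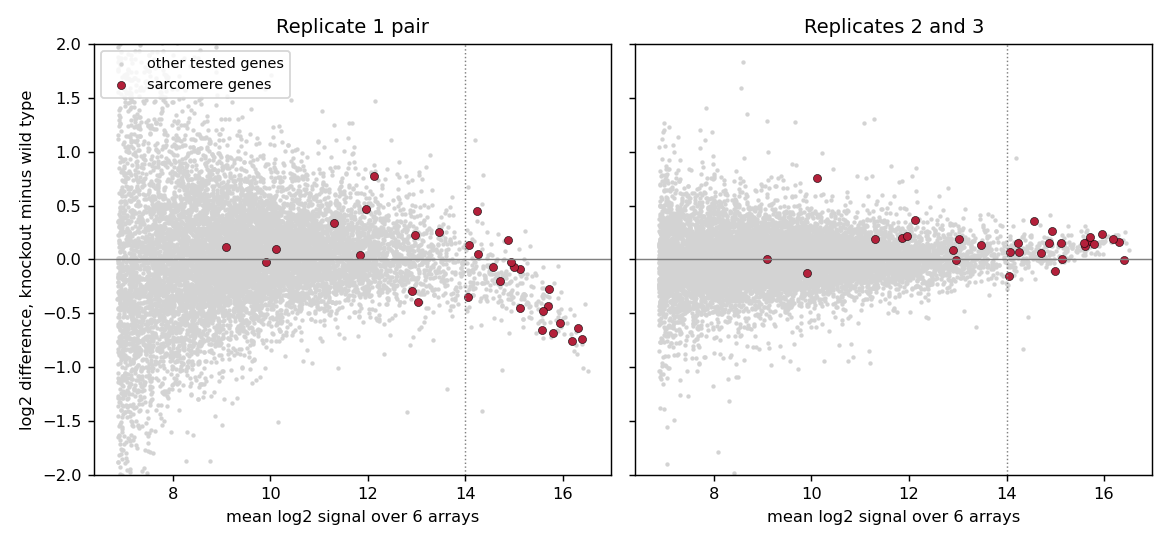
Genotype difference on the log2 scale (y axis) against mean log2 signal over the 6 arrays (x axis), in the replicate 1 pair (left) and over replicates 2 and 3 (right). Grey points are the other tested genes, red points the 31 sarcomere genes, and the dotted line marks a mean log2 signal of 14. The y axis runs from -2 to 2, which leaves 123 genes and no sarcomere gene outside. To the right of the dotted line both sets have medians below 0 on the left (-0.26 and -0.31) and above 0 on the right (0.09 and 0.15).

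Quantile normalization, which gives all arrays one distribution of signals, moved these values. It took the median of the 31 genes in the replicate 1 pair from -0.07 to 0.09. Over replicates 2 and 3 it took that median from 0.15 to 0.09. The median difference of all genes over all arrays was 0.01 before quantile normalization and 0.02 after it. The bright other genes then had medians of 0.01 in the replicate 1 pair and 0.01 over replicates 2 and 3. For the bright sarcomere genes these medians were 0.08 and 0.05. Genotypes were apart for 7 of 31 genes after it, with Mybpc3, Tcap, Csrp3, Myot, Nexn and Synpo2l above (6 of 31, 4.28% of all genes) and Des below (1 of 31, 3.52% of all genes). Myot, Synpo2l, Nexn and Des were thus apart under both scalings.

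Several genes had more than 1 probe set, which gives further readings of a gene on the same arrays, though not always of the same transcript. The 31 genes had 67 probe sets, of which 62 were tested and 0 had an unadjusted p under 0.05 in limma (adjusted p under 0.05 likewise 0). Among the 13 genes with more than 1 tested probe set, all readings were higher in knockout for Ldb3 (0.21 to 0.31), Synpo2l (0.30 to 0.52), Mypn (0.03 to 0.15) and Flnc (0.002 to 0.53). All were lower for Tpm2, Capzb, Myom2 and Ankrd1. Both directions occurred for Tnnt2, Tpm1, Nebl, Ttn and Pdlim5. The other 18 genes, Myot, Nexn and Des among them, rest on a single tested probe set.

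**Figure D4:**
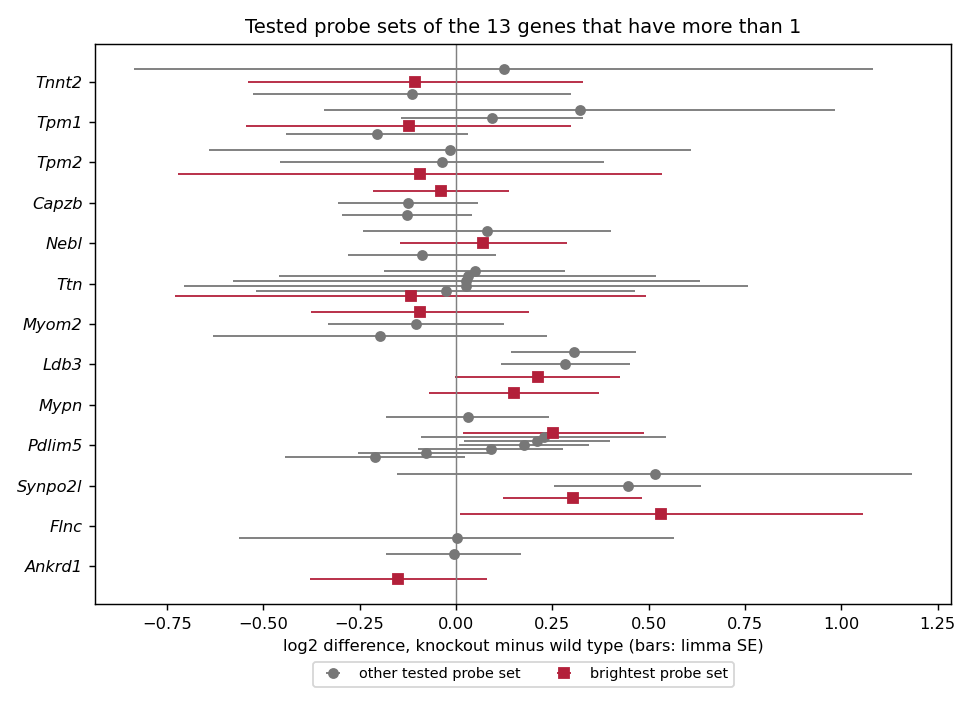
Log2 difference, knockout minus wild type, with its limma standard error (x axis, bars) for every tested probe set of the 13 genes that have more than 1 (y axis). Red squares are the brightest probe set, which represents the gene elsewhere, and grey circles the others. All probe sets of Ldb3, Synpo2l, Mypn and Flnc lie at or above 0, and most bars cross 0.

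Related genes outside the list gave no call either. In each of 4 further lists, 0 genes had an adjusted p or an unadjusted p under 0.05 in limma without a block (0% and 2.17% of all genes). With the term for replicate 1, limma gave an unadjusted p under 0.05 to 3 of 14 SRF, MEF2 and cardiac transcription factors. The other 3 lists had 1 such gene each, against 921 of 11075 genes tested, and the lowest adjusted p in the 4 lists was 0.561. Of 22 other sarcomere and Z-disc genes 15 were higher in knockout and 7 lower, with a median difference of 0.01. In the replicate 1 pair 13 of these 22 were lower (median -0.09), and over replicates 2 and 3 17 were higher (median 0.08). The lowest p values in that list were those of Myoz1 and Sorbs2. Myoz1, a calsarcin best known from fast skeletal muscle, read 91.4 ± 46.6 in wild type and 146 ± 23.1 in knockout (SD, n = 3). Sorbs2, a Z-disc adaptor, read 9169 ± 1293 and 11348 ± 392. Knockout was above wild type without overlap for 3 of the 22 genes, both of these included (3.9% of all genes). In the lists that follow the genotypes did not overlap for 1 of 17, 2 of 24 and 1 of 14 genes. Among these, Smyd2 was below (3.56% of all genes) and Cdh2 and Gata4 above. Of 17 genes of sarcomere assembly and turnover 15 were higher and 2 lower (median 0.08), while in the replicate 1 pair 10 were lower (median -0.08) and over replicates 2 and 3 14 were higher (median 0.14). They were led by Capn3, a titin-bound protease (192 ± 45.2 and 294.1 ± 72.7), and Smyd2, a methyltransferase found on titin (5413 ± 134 and 4962 ± 335). Among 24 costamere and intercalated disc genes 17 were higher and 7 lower (median 0.13, with 0.09 in the replicate 1 pair and -0.001 over replicates 2 and 3), led by Ctnna3, alpha-T-catenin (289.5 ± 74.6 and 434 ± 133), and Cdh2, N-cadherin (7950 ± 1591 and 9670 ± 508). Of 14 genes for SRF, MEF2 and cardiac transcription factors 11 were higher and 3 lower (median 0.17, with 0.10 in the replicate 1 pair and 0.12 over replicates 2 and 3), led by Hand2 (1755 ± 457 and 2362 ± 327) and Gata4 (1680 ± 234 and 2094 ± 182).

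Markers of the cell types of the ventricle were read on the same arrays. Of 10 ventricular cardiomyocyte markers outside the list, 10 were lower in the replicate 1 pair (median -0.59) and 10 higher over replicates 2 and 3 (median 0.18). Their summed signal ranged from 463171 to 1351338 in wild type and from 563290 to 827627 in knockout. Summed atrial markers, with 5 of 6 tested, lay at 15180 to 16906 in wild type and 16693 to 20094 in knockout. Of 11 skeletal muscle markers 2 passed the brightness filter, and the sums were 541.5 to 1704 and 597.7 to 807. Smooth muscle and pericyte markers (9 of 10 tested) summed to 35261 to 42979 and 37729 to 41096, and fibroblast markers (10 of 10) to 45390 to 66780 and 42761 to 74196. Endothelial markers were lower in knockout for 9 of 10, at sums of 16178 to 18340 in wild type and 14822 to 16426 in knockout. Macrophage markers were lower for 9 of 10, at 19539 to 28725 and 14526 to 27730. Over all arrays 9 of 10 ventricular cardiomyocyte markers and the 2 tested skeletal muscle markers were lower too. The 5 tested atrial markers were higher. Of the smooth muscle and pericyte markers 3 of 9 were lower, and of the fibroblast markers 4 of 10. Among all tested genes 5174 of 11075 were lower. None of these markers had an unadjusted p under 0.05 in limma without a block. With the term for replicate 1, limma gave 1 endothelial and 1 macrophage marker such a p (921 of 11075 genes tested). The part of cell makeup in the sarcomere values was not tested.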

How the data were processed

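Left ventricular RNA was measured on 6 Affymetrix arrays. The deposited values are linear intensity values made by the authors with MAS5, per the submitters' processing notes, which give no version. From 45101 probe sets, 64 controls were left out, and 34945 carried 1 gene symbol in GEO's platform annotation, 932 several and 9160 none listed here. Signals were taken as log2(signal + 21.7), the added value being the 20th percentile of all signals, so changes of dim genes are understated. Probe sets with a mean log2 signal above the median of 6.868 (22519) were tested, and the brightest probe set stood for a gene. Genotypes were compared in limma 3.58.1 (R 4.3.3) with Benjamini-Hochberg adjustment at 0.05, over all 11075 genes. The fit was tested on simulated data with added genotype differences larger than that of any sarcomere gene. That test does not cover differences of the size seen here.

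The main fits had no block, and the replicate number was tried as pairing only in an alternative fit. Same-numbered arrays of the 2 genotypes deviated together (r 0.607, 0.455 and 0.394). Unlike numbers 2 and 3 did so too (0.445 and 0.363), while replicate 1 against 2 or 3 gave -0.534 to -0.436. Deviations were taken from each genotype's own mean, so they cancel within a genotype and these signs are not independent of one another. The labels name no batch. All members are named, with full statistics for the 8 lowest p and the 6 widest gaps between the replicate 1 pair and replicates 2 and 3, and of each further list the 2 lowest p. Members and lists were chosen with earlier results of these data known. Alternatives covered the added value, the filter, quantile normalization, moderation of the variance, all probe sets of a gene, both blocks and leaving out arrays. Promoter windows are RefSeq's. Gene coordinates are not given because the array annotation names no build.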

Additional observations from a re-analysis of the deposited data

How the results depend on the processing

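With 3 arrays in each group and replicate 1 standing apart, limma without a block called 0 of 11075 genes, Akt2 included (adjusted p 0.0638), and with the term for replicate 1 it called 1, not Akt2 (adjusted p 0.0963). Of the sarcomere genes, 0 of the 31 genes passed an adjusted p of 0.05 in limma under any of the 16 alternatives (lowest adjusted p 0.384, without replicate 1). The count with an unadjusted p under 0.05, which was 0, became 1 with quantile normalization, 1 with trended and robust moderation, 2 with the replicate block and 3 with the term for replicate 1, and 0 to 3 on leaving out arrays (3 without the replicate 1 pair). The replicate block, which pairs the arrays by number, changed no adjusted call. The median difference of the 31 genes, 0.04, ranged from -0.0468 without wild type 2 to 0.21 without wild type 1. The count of genes without overlap, 4, was 7 under quantile normalization and 4 to 11 on leaving out arrays, where fewer arrays overlap less often by construction (11 without the replicate 1 pair and 10 without wild type 1). The median in the replicate 1 pair turned from -0.07 to 0.0852 under quantile normalization. Trended and robust moderation gave 1 interaction call, Tpm1, in place of 0, and 20 genes that differ on the replicate 1 arrays in place of 12. Quantile normalization gave 8 such genes, and testing without the filter gave 4. The causes were not tested.

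Quantile normalization turned the sign of Tnnt2 (0.023), Tnni3 (0.057), Tpm1 (0.012), Tmod1 (0.0096), Ttn (0.044), Actn2 (0.037) and Csrp3 (0.05). The mean of all probe sets took Synpo2l from 0.30 to 0.10 and turned Tpm1 (0.022), Tpm2 (0.065) and Des (0.0072). Leaving out an array or the replicate 1 pair changed the sign of 19 genes: Actc1 (-0.63 to 0.25), Tnnt2 (-0.45 to 0.36), Tnni3 (-0.30 to 0.35), Tnnc1 (-0.44 to 0.31), Tpm1 (-0.45 to 0.35), Tpm2 (-0.62 to 0.44), Tmod1 (-0.12 to 0.19), Capzb (-0.10 to 0.086), Nebl (-0.10 to 0.17), Mybpc3 (-0.037 to 0.17), Ttn (-0.53 to 0.54), Myom1 (-0.0087 to 0.17), Myom2 (-0.31 to 0.11), Actn2 (-0.29 to 0.33), Csrp3 (-0.23 to 0.24), Myoz2 (-0.26 to 0.18), Pdlim3 (-0.04 to 0.16), Ankrd1 (-0.28 to 0.052) and Fhl2 (-0.066 to 0.21). The other 12 kept their sign. Leaving out an array moved Flnc (0.20 to 1.09), Pdlim5 (0.061 to 0.42), Ldb3 (0.085 to 0.40), Tcap (0.018 to 0.33), Mypn (0.036 to 0.32), Smpx (0.05 to 0.28), Xirp1 (0.14 to 0.40) and Lmod2 (0.02 to 0.10), and also Myot (0.29 to 0.61), Synpo2l (0.21 to 0.40), Nexn (0.13 to 0.19) and Des (-0.29 to -0.15).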

Other observations

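Wild type 2 was the lowest array for 17 of the 31 sarcomere genes (16.5% of all tested genes, 64.4% of the other bright genes). It was the lowest for 4 of the 6 listed markers of atrial muscle, a pattern noticed after their values were seen. Myl7, the atrial regulatory light chain, read 1101, 96.5 and 1246 in wild type and 1861, 1320 and 635.2 in knockout. Sln, which encodes sarcolipin, an atrial regulator of the calcium pump, read 205.2, 56.6 and 583.9 in wild type and 613.6, 405.7 and 138.1 in knockout. Myl4, the atrial essential light chain, read 2014, 376 and 1560 against 2224, 1604 and 803. Dkk3 was the fourth, at 161.9, 102.1 and 202 against 328.6, 145.4 and 129.7. The other 2 markers went otherwise. Nppa, the natriuretic peptide, read 12804, 14476 and 13298 against 11646, 15028 and 18373, and was lowest on knockout 1. Bmp10, below the brightness filter, read 21.4, 72.4 and 16.6 against 19.7, 107 and 15.4. Within the knockout group, replicate 3 was the lowest array for 5 of the 6. The share of all genes for that count was not computed. No genotype difference passed adjustment for any of the 5 tested markers in limma, and none had an unadjusted p under 0.05.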
